A study of Homo sapiens with 12 samples.

Results

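PXR, CAR and AHR, which switch on drug-metabolizing genes in the liver, were examined together with the cytochrome P450 genes that they regulate in RNA sequencing data of human liver spheroid co-cultures. The 9 genes were chosen by name, with earlier results of these data known. They are the receptor genes NR1I2, which encodes PXR, NR1I3, which encodes CAR, and AHR, and the P450 genes CYP1A1, CYP2B6, CYP2S1, CYP3A4, CYP3A5 and CYP3A7. All 9 were among the 16705 genes of the processed table, and 7 of them passed the filter on low values that left 11713 genes for testing, whereas NR1I3 and CYP3A4 did not. The spheroids held HepG2/C3A cells, a clone of the HepG2 hepatoma line with hepatocyte features, and LX-2 cells, an immortalized line of human hepatic stellate cells, and were grown in medium with fetal bovine serum. The 12 libraries formed 4 groups of 3, which were spheroids without treatment for 24 h, spheroids given 1% total parenteral nutrition (TPN, an intravenous feeding mixture of amino acids with electrolytes, glucose, a lipid emulsion, trace elements and vitamins) for 24 h, spheroids without treatment for 144 h, and spheroids given 1% TPN for 144 h. Untreated and exposed spheroids of a time point shared the same culture time. Both cell types are established lines, each library pooled many spheroids, and the RNA of the 2 lines was not separated. The study describes its data as coming from independent experiments, while the sample labels give only replicate numbers, so p values measure the spread between these libraries.

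PXR and CAR are nuclear receptors that bind DNA together with RXR and respond to drugs, bile acids and other lipophilic compounds, and CYP3A4 and CYP2B6 are their best known targets in hepatocytes. AHR is a ligand-activated factor that is held in the cytosol by HSP90, moves to the nucleus on binding planar aromatic compounds or tryptophan metabolites, pairs there with ARNT and induces CYP1A1, which oxidizes such compounds. CYP2S1, an extrahepatic P450, is also a target of AHR. CYP3A5 and CYP3A7 are close relatives of CYP3A4 in the same gene cluster, and CYP3A7 is the form of the fetal liver that CYP3A4 replaces after birth.

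The proximal promoters of the CYP3A genes and of CYP1A1 are shown because they hold, or nearly hold, sequences of the kind that PXR and AHR are known to bind. The marked stretches are matches of letters, and binding at these places was not measured. RefSeq promoters were found for all 9 genes. Each line below gives the 250 bases before the RefSeq start site on GRCh38.p14, 5′ to 3′ on the minus strand, on which all 4 genes lie. Their positions are chr7:99784185-99784434 for CYP3A4, chr7:99679997-99680246 for CYP3A5, chr7:99735197-99735446 for CYP3A7 and chr15:74725529-74725778 for CYP1A1. In CYP3A4 and CYP3A5, capitals mark both units of an everted repeat with a 6-base spacer, a known binding site of PXR with RXR. They also mark the matching stretch in CYP3A7, whose first unit differs, so that it is not an exact match of the letters searched. In CYP1A1 they mark GCGTG, the core bound by AHR with ARNT. A match of this core alone does not show an AHR site, and bases further upstream were not searched.
CYP3A4: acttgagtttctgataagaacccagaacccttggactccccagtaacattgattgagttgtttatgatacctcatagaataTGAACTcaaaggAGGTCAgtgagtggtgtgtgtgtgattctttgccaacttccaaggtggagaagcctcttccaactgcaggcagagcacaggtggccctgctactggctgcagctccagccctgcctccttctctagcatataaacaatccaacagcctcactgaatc
CYP3A5: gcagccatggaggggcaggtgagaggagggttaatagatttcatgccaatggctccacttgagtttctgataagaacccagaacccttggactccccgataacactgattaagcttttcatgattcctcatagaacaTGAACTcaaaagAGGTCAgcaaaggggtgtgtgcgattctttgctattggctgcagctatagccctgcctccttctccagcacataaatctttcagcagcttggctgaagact
CYP3A7: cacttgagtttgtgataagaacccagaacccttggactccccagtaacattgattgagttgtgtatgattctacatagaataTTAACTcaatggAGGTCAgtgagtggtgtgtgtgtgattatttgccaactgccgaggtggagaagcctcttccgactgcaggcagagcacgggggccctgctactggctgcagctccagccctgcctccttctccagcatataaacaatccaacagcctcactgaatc
CYP1A1: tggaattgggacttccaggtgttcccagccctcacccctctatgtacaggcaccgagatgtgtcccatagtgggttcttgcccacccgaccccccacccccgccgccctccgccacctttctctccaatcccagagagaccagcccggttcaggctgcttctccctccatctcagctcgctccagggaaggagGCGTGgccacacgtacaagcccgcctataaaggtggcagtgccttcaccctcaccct

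The repeat reads TGAACTcaaaggAGGTCA in CYP3A4, with its first base 169 bases before the start site, and TGAACTcaaaagAGGTCA in CYP3A5, 113 bases before it. In CYP3A7 the matching stretch, 168 bases before the start site, reads TTAACTcaatggAGGTCA. Counted from 1 at the first base of the repeat and with the CYP3A4 base written first, CYP3A5 carries G11A in the spacer, and CYP3A7 carries A10T in the spacer and G2T in the first unit. On both strands, TGAACT and AGGTCA spaced by 6 bases were found in 3 of 35116 RefSeq promoters (0.00854%), those of CYP3A4, CYP3A5 and ITGB1BP2, while AGGTCA alone was found in 13.8% and overlaps the repeat. CYP2B6 held AGGTCA 164 bases before its start site and CYP2S1 held its reverse complement TGACCT 181 bases before it. GCGTG occurred 57 bases before the start of CYP1A1 and, beyond the stretch printed here, 38 bases into the transcript of AHR, and it occurred in 36.5% of all promoters on either strand. No match in NR1I2 or NR1I3 says only that these letters are not in the window of 250 bases before and 50 after the start. Over the whole window, CYP3A4 and CYP3A7 were identical at 94.3% of 299 aligned bases, and CYP3A4 and CYP3A5 at 85.9% of 241. CYP3A4 and CYP3A7, with these nearly alike promoters, had very different RNA levels in the spheroids, with group means of 0.0067 to 0.037 FPKM and 1.38 to 4.43 FPKM.

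**Figure D1:**
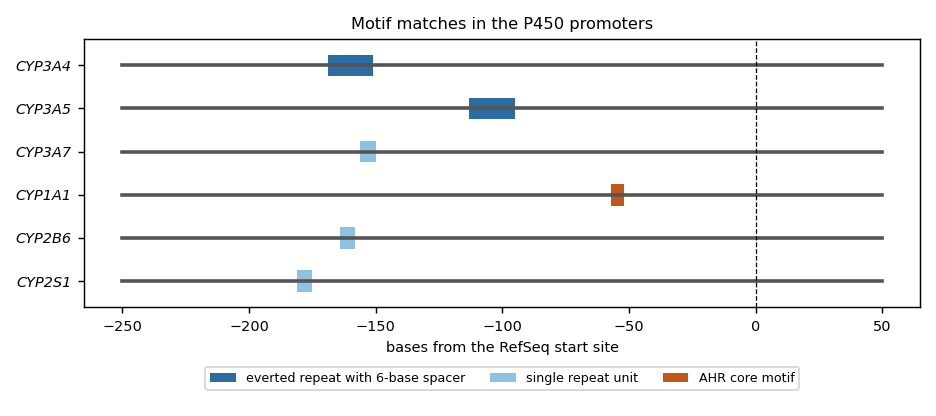
Positions of the motif matches in the promoters of 6 P450 genes, in bases from the RefSeq start site (dashed line at 0; each grey line spans 250 bases before to 50 after). Dark blue bars are the everted repeats and light blue bars are single AGGTCA units in promoters without an exact match of the repeat. The orange bar is GCGTG, a match of the core letters only. CYP3A4 and CYP3A5 are seen to hold the repeat, and CYP3A7 an exact match of its second unit only.

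Expression was measured as FPKM, fragments relative to transcript length and to the mapped fragments of a library, and was compared as log2(FPKM + 0.1), which understates changes of weakly expressed genes. A gene is said here to rise or fall when its Benjamini-Hochberg adjusted p value was below 0.05 in a limma model of the 4 groups, and a differentially expressed gene (DEG) also had an absolute log2 fold change above 0.58. Intervals are 95% intervals of the log2 fold change. The FPKM of a library summed to 561657 to 583722, and from the steps of low values in 57 short genes the depth was estimated at 1.72e+07 to 1.86e+07 fragments per library. At this depth the level of AHR rested on about 736 fragments per library, that of NR1I2 on 377, CYP1A1 on 370, CYP2S1 on 234, CYP2B6 on 156, CYP3A7 on 82.2, CYP3A5 on 53.1, NR1I3 on 8.45 and CYP3A4 on 1.27, so that NR1I3 and CYP3A4 were the least precise. Hepatocyte markers were strongly expressed, with ALB, the serum albumin gene, between 3674 and 6391 FPKM, although CYP7A1, the bile acid synthesis enzyme, was at or below 0.04 FPKM in every library. The 10 hepatocyte markers summed to 11854 to 12223 FPKM in untreated and 10919 to 10951 FPKM in exposed spheroids at 24 h, and to 13225 to 14205 and 10322 to 11059 FPKM at 144 h. The 14 stellate cell markers summed to 195.7 to 202 and 187 to 192 FPKM at 24 h, and to 217.6 to 228.4 and 236.7 to 239.1 FPKM at 144 h. Within that sum LOX, the lysyl oxidase gene, rose with culture time to 141.8 to 166.2 FPKM while COL1A1, the main fibrillar collagen gene, went from 14.1 to 16.3 FPKM in the 24 h groups to 0.62 to 2.38 FPKM at 144 h, and DCN, LUM, POSTN and DES stayed below 0.3 FPKM. In these bulk samples, fewer cells of a type and less RNA per cell cannot be told apart, and the part of the marker differences in the results below was not tested.

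After 24 h of TPN, CYP3A5, CYP3A7 and CYP1A1 were lower and the PXR gene and CYP2S1 were higher. Of the 7 genes tested, 2 rose and 3 fell, beside 10.5% of all 11713 genes that changed in either direction (5.04% higher and 5.46% lower). CYP3A7 was the only DEG among them, a call made for 0.914% of all genes. CYP3A5 was a second DEG without untreated 24 h replicate 3 (log2 fold change -0.70), without exposed 24 h replicate 2 (-0.63) or with a pseudocount of 0.01 (-0.59), and with a mean FPKM of at least 5, where 4 of the members were tested, 0 were DEGs and 3 changed. After 144 h, 5 of the 7 rose, namely NR1I2, AHR, CYP1A1, CYP2B6 and CYP2S1, and CYP3A7 fell, beside 52.5% of all genes that changed (24.2% higher and 28.3% lower). CYP1A1, CYP2B6 and CYP2S1 were DEGs, beside 9.48% of all genes, and without untreated 144 h replicate 3 the DEGs were 5, with NR1I2 (0.58) and CYP3A7 (-0.58) added. The median log2 fold change of the 7 genes was -0.12 at 24 h and 0.53 at 144 h, compared with -0.0045 and -0.018 over all genes tested. All 7 had groups that did not overlap at 24 h, against 29.9% of all genes, and 6 of 7 at 144 h, against 57.3%. These comparisons at the 2 times used separate control libraries. Because the genes were chosen with earlier results known, the shares over all genes, here and below, give a scale and no test.

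**Figure D2:**
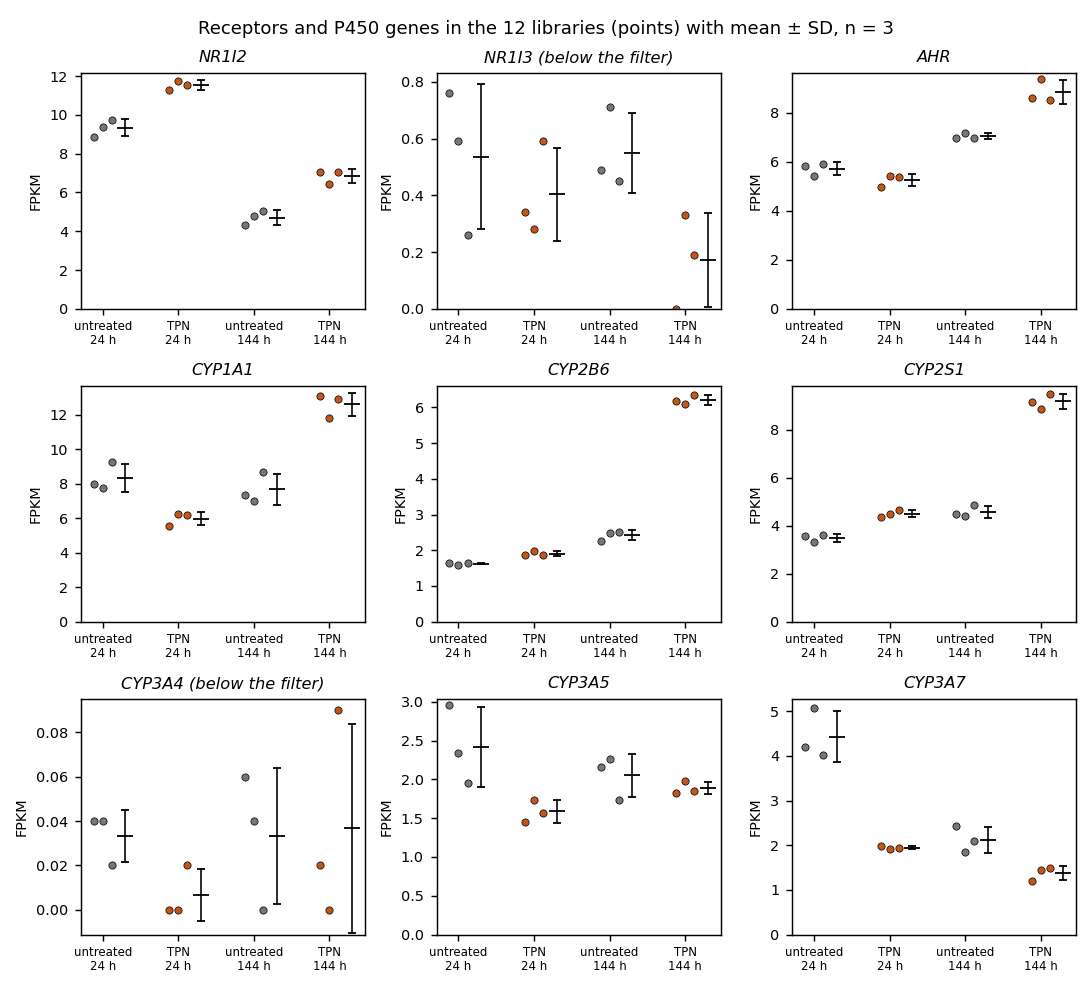
FPKM (y axis, linear, from 0 or just below) of the 9 genes in each of the 12 libraries (points, grey for untreated and orange for 1% TPN), with the mean and SD of each group of 3 beside them. CYP2B6 and CYP2S1 are highest in the exposed 144 h group, CYP3A7 is highest in the untreated 24 h group, and NR1I3 and CYP3A4 stay below 0.8 and 0.1 FPKM.

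**Figure D3:**
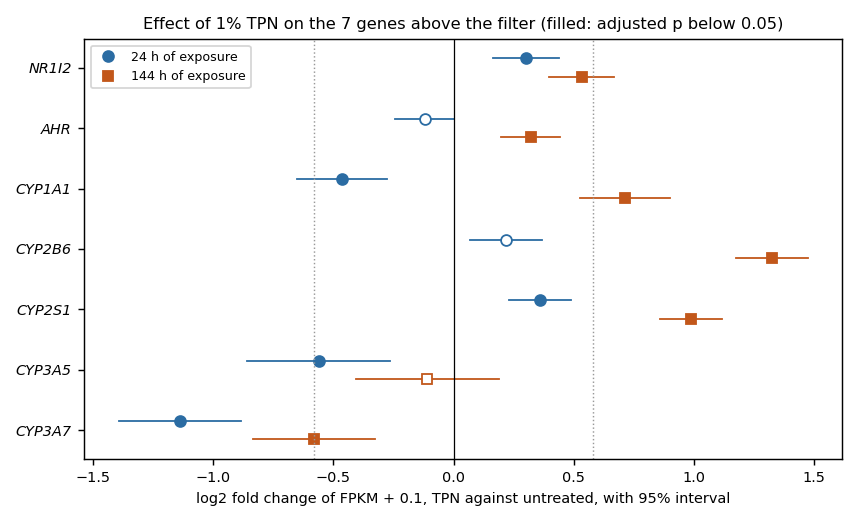
Log2 fold change of FPKM + 0.1 between spheroids exposed to 1% TPN and untreated spheroids (x axis) for the 7 genes tested, with 95% intervals, after 24 h (blue circles) and 144 h (orange squares). Filled symbols have an adjusted p value below 0.05 and dotted lines mark ±0.58. CYP1A1 lies below 0 at 24 h and above 0 at 144 h, whereas CYP3A7 lies below 0 at both times.

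NR1I2, the PXR gene on chromosome 3 (GRCh38.p13, 119782101 to 119818487), was higher with TPN at both times. Its level was 8.88, 9.40 and 9.75 FPKM in untreated and 11.27, 11.76 and 11.56 FPKM in exposed spheroids at 24 h. At 144 h it was 4.30, 4.77 and 5.04 FPKM in untreated and 7.06, 6.42 and 7.04 FPKM in exposed spheroids. The groups were apart at each time, and all 4 groups kept the order exposed 24 h, untreated 24 h, exposed 144 h and untreated 144 h from highest to lowest. The log2 fold change was 0.30 at 24 h (interval 0.17 to 0.44, adjusted p = 0.00743) and 0.53 at 144 h (0.40 to 0.67, adjusted p = 1.01e-05). The difference between the 2 effects was 0.23 (0.04 to 0.42) with an adjusted p of 0.0666, so that a stronger effect at 144 h was not shown. Without untreated 144 h replicate 3 or exposed 144 h replicate 2 that adjusted p was 0.032 and 0.0395.

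NR1I3, the CAR gene on chromosome 1 (161229666 to 161238623), was barely expressed. It was listed at 0.76, 0.59 and 0.26 FPKM in untreated and 0.34, 0.28 and 0.59 FPKM in exposed spheroids at 24 h, where the groups overlapped. At 144 h the untreated libraries had 0.49, 0.71 and 0.45 FPKM and the exposed libraries 0, 0.33 and 0.19 FPKM, and every exposed value was below every untreated one. The 2-sided exact permutation test of 3 against 3 values gave p = 0.1, the smallest it can give, and with no filter limma gave a log2 fold change of -1.47 (adjusted p = 0.0314). A level of 0.0492 FPKM corresponds to about 1 fragment of this gene, so the exposed libraries at 144 h held few fragments of it.

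CYP3A4, the main drug-oxidizing P450 of the adult liver (chromosome 7, 99756967 to 99784184), was hardly detected. Its values were 0.04, 0.04 and 0.02 FPKM untreated and 0, 0 and 0.02 FPKM exposed at 24 h, and 0.06, 0.04 and 0 FPKM untreated and 0.02, 0 and 0.09 FPKM exposed at 144 h. With about 0.0217 FPKM per fragment, these are 0 to 4.15 estimated fragments per library, and no difference was detectable at this depth (exact permutation p = 0.2 at 24 h and 1 at 144 h, smallest possible 0.1). In every library CYP3A7 was far above it, at 1.2 FPKM or more. CYP3A43, the remaining gene of the cluster, was at 0.03 to 0.13 FPKM.

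CYP3A7, the fetal form (chromosome 7, 99705036 to 99735196), fell with TPN at both times. At 24 h it went from 4.19, 5.08 and 4.02 FPKM in untreated to 1.98, 1.92 and 1.94 FPKM in exposed spheroids, which is the largest fall among the 7 genes (log2 fold change -1.14, interval -1.39 to -0.89, adjusted p = 2.67e-05). At 144 h the untreated libraries were already low at 2.42, 1.84 and 2.10 FPKM, and the exposed libraries had 1.2, 1.45 and 1.5 FPKM (-0.58, -0.83 to -0.33, adjusted p = 0.000968). The latter value, -0.579 at 3 decimals, lies just inside the DEG threshold and passes it under several alternatives. The exposed 24 h and untreated 144 h libraries overlapped. The effects differed by 0.56 (0.20 to 0.92, adjusted p = 0.0214), that is the fall was smaller at 144 h, but this call was lost without untreated 24 h replicate 2 (adjusted p = 0.0579), without untreated 144 h replicate 2 (0.0526) and after quantile normalization (0.0757). The readthrough transcript gene CYP3A7-CYP3A51P, which shares exons with CYP3A7, was at 0 to 0.30 FPKM.

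CYP3A5, the polymorphic P450 of liver and gut (chromosome 7, 99648194 to 99679996), was lower with TPN at 24 h. It was at 2.96, 2.34 and 1.95 FPKM in untreated and at 1.45, 1.74 and 1.57 FPKM in exposed spheroids, with a log2 fold change of -0.56 (-0.86 to -0.26, adjusted p = 0.0188). The untreated values were widely spread, and the call was lost without untreated replicate 1 (adjusted p = 0.0787), exposed replicate 1 (0.0754) or exposed replicate 3 (0.0544). At 144 h the untreated libraries had 2.16, 2.26 and 1.74 FPKM and the exposed libraries 1.83, 1.98 and 1.85 FPKM, which overlapped (-0.11, -0.41 to 0.19, adjusted p = 0.535). The difference between the effects, 0.45 (0.03 to 0.87), had an adjusted p of 0.0969, and 0.0287 without untreated 24 h replicate 3.

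Summed over CYP3A4, CYP3A5 and CYP3A7, the level was 6.88 ± 0.782 FPKM in untreated and 3.54 ± 0.115 FPKM in exposed spheroids at 24 h, and 4.21 ± 0.404 and 3.31 ± 0.222 FPKM at 144 h (mean ± SD, n = 3). CYP3A7 made up 64.5% ± 5.41, 55.0% ± 2.63, 50.4% ± 5.34 and 41.7% ± 2.18 of that sum in the same order, and in the exposed 144 h libraries its share, 39.3% to 43.6%, was below that of CYP3A5 throughout. The sums at 24 h ran from 5.99 to 7.46 FPKM untreated and from 3.43 to 3.66 FPKM exposed and did not overlap. Reads can be divided wrongly between these genes, since the coding sequences of CYP3A4 and CYP3A7 were identical at 94.4% of aligned bases, with a longest shared run of 102 bases, those of CYP3A4 and CYP3A5 at 89.5% with a run of 112 bases, and those of CYP3A5 and CYP3A7 at 88.9% with a run of 53 bases.

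CYP2B6, the classical CAR target that oxidizes drugs such as bupropion and efavirenz (chromosome 19, 40949240 to 41018796), had the largest rise of the 7 genes tested at 144 h. At 24 h it was at 1.63, 1.60 and 1.63 FPKM in untreated and at 1.87, 1.98 and 1.86 FPKM in exposed spheroids. The groups were apart by a small margin, and the log2 fold change of 0.22 (0.07 to 0.37) had an adjusted p of 0.0629, which passed the threshold after quantile normalization (0.031) and without the intensity trend of limma (0.0106). At 144 h it was at 2.27, 2.48 and 2.52 FPKM untreated and at 6.17, 6.10 and 6.36 FPKM exposed, a log2 fold change of 1.32 (1.17 to 1.47, adjusted p = 4.29e-09) or 2.50-fold. The effect was larger at 144 h by 1.10 (0.89 to 1.32, adjusted p = 5.06e-06), and each group lay apart from the next. Its pseudogene CYP2B7P was not analysed here, and reads of close copies may be shared.

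AHR (chromosome 7, 17298652 to 17433189) was higher with TPN at 144 h. It was at 5.84, 5.44 and 5.90 FPKM in untreated and 4.98, 5.42 and 5.39 FPKM in exposed spheroids at 24 h, a log2 fold change of -0.12 (-0.24 to 0.0031, adjusted p = 0.222). At 144 h it was at 6.97, 7.19 and 6.99 FPKM untreated and 8.59, 9.40 and 8.54 FPKM exposed, with a log2 fold change of 0.32 (0.20 to 0.44, adjusted p = 0.000338). The effects differed by 0.44 (0.27 to 0.61, adjusted p = 0.00113).

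CYP1A1 (chromosome 15, 74719542 to 74725528) moved down at 24 h and up at 144 h. The untreated libraries at 24 h had 7.96, 7.72 and 9.24 FPKM and the exposed libraries 5.52, 6.25 and 6.16 FPKM, a log2 fold change of -0.47 (-0.65 to -0.28, adjusted p = 0.00343). At 144 h the untreated libraries had 7.33, 6.98 and 8.68 FPKM and the exposed libraries 13.07, 11.82 and 12.88 FPKM, a log2 fold change of 0.71 (0.53 to 0.90, adjusted p = 1.28e-05). All exposed libraries were below all untreated ones at 24 h and above them at 144 h. The difference between the effects, 1.18 (0.92 to 1.44, adjusted p = 1.59e-05), was the largest of the 7 genes. CYP1A2, its neighbour and the AHR target of the adult liver, shares 80.6% of aligned coding bases with it and was below the filter, at 0.02 to 0.11 FPKM in untreated spheroids at both times, 0.02 to 0.07 FPKM exposed at 24 h and 0.21, 0.21 and 0.22 FPKM exposed at 144 h.

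CYP2S1 (chromosome 19, 41193219 to 41207539) was higher with TPN at both times. It was at 3.55, 3.31 and 3.61 FPKM untreated and 4.36, 4.49 and 4.65 FPKM exposed at 24 h, with a log2 fold change of 0.36 (0.23 to 0.49, adjusted p = 0.0016). At 144 h it was at 4.50, 4.39 and 4.86 FPKM untreated and 9.15, 8.87 and 9.50 FPKM exposed, with a log2 fold change of 0.99 (0.86 to 1.12, adjusted p = 1.66e-08) or 1.98-fold. The exposed 24 h and untreated 144 h libraries overlapped, and the effect was larger at 144 h by 0.63 (0.45 to 0.81, adjusted p = 0.000118).

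In the test of the difference between the effects, 5 of the 7 genes had a higher effect at 144 h, beside 30.4% of all genes whose effects differed (14.1% higher and 16.3% lower). These were AHR, CYP1A1, CYP2B6, CYP2S1 and CYP3A7, of which CYP1A1, CYP2B6 and CYP2S1 also passed the threshold of 0.58, as 5.87% of all genes did. Without untreated 24 h replicate 3 CYP3A5 (0.59) and CYP3A7 (0.62) passed it too. The DEGs were 4 without untreated 24 h replicate 1, untreated 144 h replicate 1 or exposed 144 h replicate 1. With a mean FPKM of at least 5, 2 of the 4 members tested passed it, or 2 of 7 with a pseudocount of 1. Of these DEGs over all genes 71.6% were higher, and 61.1% after quantile normalization.

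Among the proteins that act with AHR, ARNT fell at both times and HSP90AB1 moved in opposite directions. The list held 8 genes with AHR itself, of which 6 were tested. At 24 h, PTGES3 and HSP90AB1 rose and ARNT fell, and at 144 h AHR itself rose and 2 genes fell (median log2 fold change -0.034 and 0.003). Beside them, 5.04% of all genes rose and 5.46% fell at 24 h, and 24.2% and 28.3% at 144 h. ARNT, the DNA-binding partner of AHR, was at 7.91 to 8.22 FPKM untreated and 6.67 to 7.16 FPKM exposed at 24 h (-0.21, adjusted p = 0.00672), and at 9.21 to 9.58 and 8.46 to 8.67 FPKM at 144 h (-0.13, adjusted p = 0.0203). HSP90AB1, the chaperone that holds AHR in the cytosol, rose by 0.08 at 24 h (adjusted p = 0.0421) and fell by 0.07 at 144 h (adjusted p = 0.0148). AHRR, the repressor of AHR and one of its targets, was below the filter. It was at 0.32 to 0.38 FPKM untreated and 0.24 to 0.34 FPKM exposed at 24 h, which overlapped. At 144 h it was at 0.16 to 0.23 FPKM untreated and 0.13 to 0.14 FPKM exposed, and every exposed value was below every untreated one.

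Of the other AHR targets, NQO1, ALDH3A1 and UGT1A6 rose at 144 h, and TIPARP, the ADP-ribosyltransferase that limits AHR signalling, did not pass. Of 7 genes listed, 4 were tested. NQO1 rose at 24 h, beside 5.04% of all genes, and 3 of the 4 rose at 144 h, beside 24.2%. The median log2 fold change was 0.59 and 1.29. NQO1, a quinone reductase that is also a target of NRF2, went from 434.2 to 439.3 FPKM untreated to 663.8 to 688.2 FPKM exposed at 24 h (0.63, adjusted p = 5.52e-09) and from 238.9 to 249.5 to 464.3 to 490.5 FPKM at 144 h (0.95, adjusted p = 1.23e-11). ALDH3A1, an aldehyde dehydrogenase, was at 0.14 to 0.32 FPKM untreated and 2.71 to 3.08 FPKM exposed at 144 h (3.36, adjusted p = 7.64e-09). UGT1A6, a glucuronidating enzyme, was at 0.36 to 1.02 FPKM untreated and 1.60 to 2.82 FPKM exposed at 144 h (1.62, adjusted p = 0.00162). TIPARP was at 7.92 to 8.11 FPKM and 7.44 to 8.16 FPKM, which overlapped (-0.05, adjusted p = 0.475). CYP1B1 was at or below 0.01 FPKM in every library.

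The partners of PXR and CAR moved in both directions. Of 11 genes listed, 10 were tested. At 24 h NR0B2 fell (-0.16, adjusted p = 0.00779), beside 5.46% of all genes. At 144 h 2 genes were raised and 3 lowered, beside 24.2% and 28.3% of all genes (median -0.041 at 24 h and 0.013 at 144 h). NR0B2, which encodes the repressor SHP, fell by 0.58 at 144 h, from 85.6 to 92.1 FPKM to 57.9 to 61.8 FPKM (adjusted p = 9.9e-09). NCOA2, a coactivator, fell by 0.45 (adjusted p = 2.94e-05), NCOR1, a corepressor, fell by 0.17 (adjusted p = 0.00704) and MED1, a Mediator subunit, rose by 0.17 (adjusted p = 0.0127). RXRA, the partner that PXR and CAR bind DNA with, was at 16.5 to 17.0 FPKM untreated and 17.0 to 17.2 FPKM exposed at 144 h (0.03, adjusted p = 0.606).

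Of 15 other PXR and CAR targets listed, 9 passed the filter, 1 of them, UGT1A1, only through the exposed 144 h libraries. Among the other 8, 2 rose and 2 fell at 24 h, beside 5.04% higher and 5.46% lower of all genes, and 6 rose and 1 fell at 144 h, beside 24.2% and 28.3% (median 0.058 and 0.36). For 5 of the 8 the effect was higher at 144 h by its own test, beside 14.1% of all genes. UGT1A1, the bilirubin-conjugating enzyme, was at 0.13 to 0.27 FPKM untreated and 2.87 to 3.69 FPKM exposed at 144 h, and at 0.47 FPKM or less at 24 h. At 144 h GSTA2, a glutathione transferase, went from 3.70 to 4.47 FPKM to 15.05 to 18.96 FPKM (2.07, adjusted p = 7.75e-09), ABCC2, the canalicular exporter of conjugates, from 118.7 to 132.4 FPKM to 244 to 247.8 FPKM (0.98, adjusted p = 1.42e-10), and CD36, a fatty acid transporter, from 2.81 to 3.28 FPKM to 4.89 to 5.20 FPKM (0.73, adjusted p = 2.8e-06). ABCC2 was already a DEG at 24 h, the only one of this list. It went there from 132.2 to 136.3 FPKM untreated to 220.5 to 231 FPKM exposed (0.74, adjusted p = 1.29e-08). UGT1A genes share most of their exons and the alpha glutathione transferases are close copies, so their values may include reads of relatives. CYP2C8 and CYP2C19, P450 targets of the same receptors in the adult liver, were at 0.07 FPKM or less in every library.

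**Figure D4:**
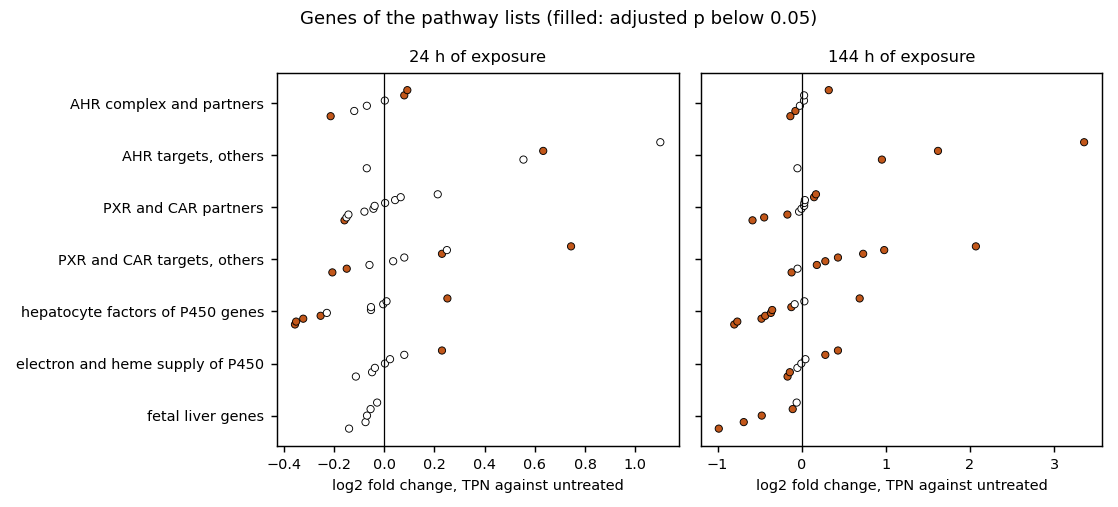
Log2 fold change of FPKM + 0.1 with TPN (x axis, with its own scale in each panel) of the genes tested in 7 lists, without UGT1A1, after 24 h and 144 h, 1 point a gene, filled when the adjusted p value was below 0.05. At 144 h the other targets of AHR and of PXR and CAR lie mostly to the right of 0 and the hepatocyte factors and fetal liver genes mostly to the left.

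Of 10 transcription factors that keep P450 genes active in hepatocytes, all of them tested, 4 fell and 1 rose at 24 h, beside 5.46% lower of all genes, and 7 fell and 1 rose at 144 h, beside 28.3% (median -0.14 and -0.36). FOXA1 went from 11.3 to 13.2 FPKM to 6.40 to 7.39 FPKM at 144 h (-0.80, adjusted p = 3.58e-07), CEBPA from 45.2 to 47.4 FPKM to 25.3 to 29.5 FPKM (-0.77, adjusted p = 3.73e-08) and FOXA3 from 29.1 to 30.7 FPKM to 19.4 to 22.6 FPKM (-0.48, adjusted p = 1.58e-05), while CEBPB, a factor of the acute phase response, rose from 53.2 to 56.5 FPKM to 84.4 to 90.3 FPKM (0.69, adjusted p = 1.51e-08). The hepatocyte markers moved in the same direction, with 5 of 9 lower at 24 h and 7 of 9 lower at 144 h (median -0.15 and -0.27). The largest falls at 144 h were those of ALB (-0.65, adjusted p = 4.69e-08), the transferrin gene TF (-0.59, adjusted p = 3.57e-09) and the transthyretin gene TTR (-0.51, adjusted p = 5.87e-07). Of the 5 fetal liver genes tested, 0 passed at 24 h in limma (2 at an unadjusted p below 0.05) and 4 fell at 144 h (median -0.069 and -0.47), among them DLK1 (-0.99, adjusted p = 4.95e-10), AFP, the alpha-fetoprotein gene (-0.69, adjusted p = 1.23e-07), IGF2 (-0.47, adjusted p = 1.87e-05) and GPC3 (-0.11, adjusted p = 0.00277). CYP3A7 was already lower at 24 h. Of the 10 stellate cell markers tested, 1 was higher and 1 lower at 24 h, compared with 1 higher and 5 lower at 144 h (median -0.13 and -0.39), with falls of COL3A1 (-1.40, adjusted p = 2.17e-05), COL1A1 (-1.25, adjusted p = 4.22e-06), COL1A2 (-1.07, adjusted p = 0.00591) and the vimentin gene VIM (-1.07, adjusted p = 0.000104). The shares of all genes beside these lists were 5.04% higher and 5.46% lower at 24 h, and 24.2% and 28.3% at 144 h.

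In the list on electron and heme supply, which every P450 enzyme needs, all 7 genes were tested, with ALAS1 raised at 24 h, and 2 raised and 2 lowered at 144 h (median 0.0027 and -0.0044). Of all genes, 5.04% were higher and 5.46% lower at 24 h, and 24.2% and 28.3% at 144 h. POR, the reductase that feeds electrons to P450 enzymes, rose by 0.43 at 144 h, from 170.3 to 175.7 FPKM to 229.8 to 239.5 FPKM (adjusted p = 1.55e-07), and ALAS1, the first enzyme of heme synthesis, rose by 0.28 (adjusted p = 1.41e-05) after a rise of 0.23 at 24 h (adjusted p = 0.000728). PGRMC1, a heme-binding partner, fell by 0.17 (adjusted p = 0.0015) and CYB5R3, the cytochrome b5 reductase, fell by 0.14 (adjusted p = 0.00119). Of 17 other P450 genes of families 1 to 3, 13 were in the table and 2 passed the filter. CYP2W1, a P450 of fetal and tumour tissue, was at 32.5 to 33.9 FPKM untreated and 28.6 to 30.6 FPKM exposed at 144 h (-0.17, adjusted p = 0.024), and CYP2D6 overlapped between the groups (-0.18, adjusted p = 0.303). CYP2J2, below the filter, was at 0.46 to 0.58 FPKM untreated and 0.86 to 0.97 FPKM exposed at 144 h.

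Between 24 h and 144 h, 5 of the 7 genes changed in untreated spheroids, beside 72.6% of all genes (20.1% higher and 52.4% lower). Of these, 2 were DEGs, NR1I2 and CYP3A7, beside 19.0% of all genes. The DEGs were 3 with median ratio scaling, with quantile normalization or without untreated 144 h replicate 1. From 24 h to 144 h NR1I2 fell by 0.98 on the log2 scale (adjusted p = 1.06e-08) and CYP3A7 fell by 1.03 (adjusted p = 2.81e-06), while CYP2B6 rose by 0.55 (adjusted p = 7.4e-06), CYP2S1 by 0.38 (adjusted p = 5.58e-05) and AHR by 0.30 (adjusted p = 0.000342). The median of all genes shifted by -0.18, and against that shift the rises are larger and the falls smaller. CYP1A1 (-0.12, adjusted p = 0.241) and CYP3A5 (-0.21, adjusted p = 0.179) did not pass, and the sign of CYP1A1 turned with median ratio scaling (0.06). The groups of 5 genes did not overlap, against 74.9% of all genes. In exposed spheroids 6 of the 7 changed, beside 76.2% of all genes (24.2% higher and 52.0% lower), and 5 were DEGs, beside 26.7%. There NR1I2 fell by 0.75 (adjusted p = 1.01e-07) and CYP3A7 fell by 0.47 (adjusted p = 0.00238), whereas CYP2B6 rose by 1.66 (adjusted p = 8.87e-11), CYP1A1 by 1.06 (adjusted p = 6.9e-08), CYP2S1 by 1.01 (adjusted p = 2.45e-09) and AHR by 0.74 (adjusted p = 3.86e-08). All 7 had groups that did not overlap, against 77.9% of all genes. With median ratio scaling the DEGs in exposed spheroids were 4. CYP3A5 did not pass (0.24, adjusted p = 0.131) but did with median ratio scaling (0.0177). For the genes that changed, every direction was the same under the 3 other scalings. Of the DEGs over all genes 35.7% were higher in either time comparison, and 65.8% (untreated) and 59.8% (exposed) with median ratio scaling or 57.8% and 50.04% with quantile normalization. Of the 10 stellate cell markers tested, 1 (LOX) rose and 8 fell from 24 h to 144 h in untreated and in exposed spheroids alike. Of all genes, 20.1% rose and 52.4% fell in untreated spheroids, and 24.2% and 52.0% in exposed ones. VIM was at 12.17 to 17.06 FPKM in the 24 h groups and 0.97 to 3.25 FPKM at 144 h. PDGFRB did not pass in untreated spheroids (-0.0075, adjusted p = 0.932). The part of such marker differences in the time comparisons was not tested.

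Across the 12 libraries, which share the 4 groups and so are no independent points, the members fell into several patterns. As a description, Pearson's r of log2(FPKM + 0.1) was 0.98 between CYP2B6 and CYP2S1, 0.91 between AHR and CYP2B6, 0.85 between AHR and CYP1A1, 0.26 between NR1I2 and CYP3A7 and -0.39 between NR1I2 and CYP2B6 (n = 12 libraries each). NR1I2 was lowest in the untreated 144 h group, where CYP2B6 was above its untreated 24 h level. The genes tested whose levels were most like those of a member were LASP1, NSUN2 and ADAM15 for NR1I2 (r = 0.990 to 0.992), EPAS1, MAP3K9 and SMAD3 for AHR (0.983 to 0.987), SDC4 and HIGD1A for CYP1A1 (0.949 and 0.942), and MAPK13, TRIB1 and PSAP for CYP2B6 (0.994 to 0.996). For CYP2S1 they were FBXL16, ASPH and ARRDC4 (0.990 to 0.992), for CYP3A7 SMAD6, NKD1 and C4BPB (0.955 to 0.971), and for CYP3A5, whose values were the most scattered, NTAN1, KNG1 and MCHR1 (0.808 to 0.862).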

How the data were processed

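RNA of 12 libraries, 3 for each of 4 groups, was measured. Sequencing used the DNBSEQ platform. The authors cleaned the reads with SOAPnuke, aligned them to GRCh38.p13 with HISAT2 2.0.4, mapped them to transcripts with Bowtie2 2.2.5 and obtained with RSEM the FPKM values used here as deposited, which have 2 decimals. The authors' DESeq2 results rest on read counts and were not used here. Table rows that carried no gene (20) were left out.

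For the 11713 genes whose mean reached 0.5 FPKM, log2(FPKM + 0.1) was fitted by limma 3.58.1 (R 4.3.3), with 4 groups in a single model, no block and eBayes with an intensity trend. Contrasts were exposed against untreated at each time, their difference, and 144 h against 24 h in either condition, with p values adjusted over all genes tested. The fit was tested on simulated data of this design. The 9 members and the gene lists were chosen with earlier results of these data known. All members are named, and of each list up to 4 genes with the largest change at 144 h, the 3 genes most correlated with each member, and genes that a result turns on. CYP1A2, CYP1B1, AHRR, CYP2C8, CYP2C19, CYP2J2, CYP3A43, CYP2D6, CYP7A1, LOX, PTGES3, RXRA and TIPARP were named after their values were seen. Some genes that meet the rule are not reported here.

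Depth was estimated from steps of low FPKM values (85.3% of 156 nonzero values lay on steps) with GENCODE v44 transcript lengths, and the authors may have used others. Promoters are those of RefSeq on GRCh38.p14, gene positions those of the deposited table, and identities come from global alignments (Biopython 1.88). Alternatives changed the pseudocount, filter, scaling, trend, fold threshold, block and libraries in the fit, and left out each library in turn. Tables and figures were made in Python 3.11.15 with matplotlib 3.10.9, scipy 1.17.1, pandas 2.3.3 and numpy 2.4.6.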

Additional observations from a re-analysis of the deposited data

Results flagged for a closer look

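In 5 of the 7 genes tested, TPN had unequal effects at 24 h and 144 h by a limma test of the difference itself, beside 30.4% of all genes. The difference on the log2 scale, 144 h minus 24 h, was 0.44 for AHR (adjusted p = 0.00113), 1.18 for CYP1A1 (adjusted p = 1.59e-05), 1.10 for CYP2B6 (adjusted p = 5.06e-06), 0.63 for CYP2S1 (adjusted p = 0.000118) and 0.56 for CYP3A7 (adjusted p = 0.0214). The call for CYP3A7 was lost without untreated 24 h replicate 2 (0.0579), without untreated 144 h replicate 2 (0.0526) and after quantile normalization (0.0757). CYP1A1 was lower with TPN in 3 of 3 libraries at 24 h and higher in 3 of 3 at 144 h, and CYP3A7 was lower at both times.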

How the results depend on the processing

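Of 748 values of the 7 genes under alternatives, 734 kept their side of the threshold, 8 passed it and 6 lost it, and none that was called changed sign. The calls that moved are given beside their genes, except that CYP1A1 between the untreated groups passed without untreated 144 h replicate 3 (-0.21, adjusted p = 0.0379) and CYP3A5 in the same comparison passed without untreated 24 h replicate 3 (-0.35, adjusted p = 0.0334). The number of DEGs over all genes moved more. With a pseudocount of 1 it was 58 in place of 107 at 24 h, 698 in place of 1110 at 144 h and 435 in place of 687 for the difference of effects. With a mean FPKM of at least 5 it was 59, 523 and 282, and 1337 in place of 2230 and 2029 in place of 3123 between times in untreated and exposed spheroids, from fewer genes tested. By adjusted p value alone it was 1230 at 24 h, 6144 at 144 h, 3565 for the difference of effects, and 8498 and 8925 between times. Of the 2 members below the filter, 1 (NR1I3 at 144 h) was called by limma with no filter, and 0 were in the limma fit otherwise. Leaving UGT1A1 out of the PXR and CAR targets, chosen after seeing the data, moved those higher at 144 h from 7 to 6.

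The correlations of deviations from the group means ran from -0.083 to 0.15 for samples with the same replicate number (median 0.046 over 18 pairs, 5 of them over 0.1) and from -0.24 to 0.11 for samples with different numbers (median -0.016 over 36 pairs, 2 over 0.1). Since not every pair of a number was over 0.1, the numbers were not taken to pair the samples. With the replicate block, DEGs were 111 at 24 h, 1108 at 144 h, 679 for the difference of effects, and 2230 and 3124 between times, and no call of a member changed. Depth limits NR1I3 and CYP3A4 most. The depth of the libraries was estimated and not stated, and intervals cover the spread between 3 libraries only.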
